A study of Homo sapiens with 3 samples.

Results

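A set of genes that had been picked from these data was followed across irradiated, non-irradiated and regrown cancer cells. It holds CEACAM1, TSPAN1, GPRC5A, SERINC2, ELF3, LCN2, FXYD3, ALDH1A3, GSN and SELENOM, 10 of the 33538 genes in each matrix. The members were chosen by their measured level in irradiated against non-irradiated cells of the same libraries, so that contrast is described here and supports nothing. CEACAM1, TSPAN1, GPRC5A and SERINC2 belong to the published epithelial high-relapse list (EpiHR), a set of tumour-epithelium genes linked to relapse of colorectal cancer. The other members come from lists of senescence, epithelial identity or persister maintenance genes, or had among the highest ratios, so "relapse-linked" applies to 4 of the 10. By textbook location CEACAM1, TSPAN1, GPRC5A, SERINC2 and FXYD3 are membrane proteins, LCN2 is secreted and GSN exists in a cytosolic and a secreted form. ELF3 is a nuclear transcription factor, ALDH1A3 a cytosolic enzyme and SELENOM a selenoprotein of the endoplasmic reticulum, so the name "surface and secreted" does not cover these 3.

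All cells were HCT116, a human colorectal cancer line, with the genotype label p53plus. Mix1 held cells irradiated with 8 Gy, from which giant cells were isolated on day 5 or 8 and cultured until day 10 or 11, and its preparations were pooled without tags. Mix2 held such irradiated cells (tag8, 10000 loaded), non-irradiated cells at 0 Gy (tag6, 1000 loaded) and cells that had repopulated the culture after irradiation (tag7, 1000 loaded), marked by antibody hashtags. Giant cells can release small progeny, so the irradiated preparations may hold progeny beside giant cells, and HCT116 is a single line.

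Barcodes were kept from 200 genes upward when fewer than 10% of their UMIs (unique molecular identifiers, each counting 1 captured RNA molecule) were mitochondrial, and in Mix2 they were placed when their own tag made up at least 80% of the 3 tags. Non-irradiated cells (NC, tag6 of at least 374) numbered 810 and repopulated cells (R, tag7 of at least 104) 633. Irradiated cells were divided into strong IR (tag8 of at least 3160), with 2216 cells, and weak IR (tag8 of 500 to 3159), with 6322 cells. Mix1 gave 15630 kept barcodes, called cells here. Only 10000 cells were given as loaded for Mix1, so its barcodes cannot all be taken as single cells. Summed UMIs ranged from 4731705 in R to 150680612 in Mix1, and median UMIs per cell from 6933 in R to 11861.5 in strong IR. Median mitochondrial shares ran from 3.41% in Mix1 to 7.16% in R. Between the kept cells of both libraries 46 barcodes were shared. Each population was 1 sample, so no difference could be set against replicates, and no test was run. Mix1 is a separate library, and there preparation and library cannot be told apart. Brackets hold exact 95% intervals that cover counting error only.

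ELF3 is an ETS-family factor of differentiating epithelia, and CDKN1A, which encodes the cell cycle inhibitor p21, is a standard target of p53. Intestinal epithelium that has been injured switches on surface, barrier and antimicrobial genes together, LCN2 (lipocalin 2, which binds bacterial siderophores) among them, and NF-kB is known to induce LCN2. Cells that halt their cycle after irradiation in a p53-dependent way raise CDKN1A. Whether the members go with ELF3 or with CDKN1A from cell to cell was therefore asked within each population.

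RefSeq (GRCh38.p14) gave promoter windows, from 250 bases before to 50 after a transcription start, for 8 of the 10 members. Those of ELF3, of LCN2, and of FXYD3 and ALDH1A3 are shown because the cell-to-cell results below turn on these genes. Each window lies inside the span of its gene in the GENCODE annotation, and capitals mark matches on either strand to AGGAA (the core of ETS sites), TATAAA, the NF-kB consensus or the p53 half-site.
ELF3, chr1:202010337-202010636, plus strand: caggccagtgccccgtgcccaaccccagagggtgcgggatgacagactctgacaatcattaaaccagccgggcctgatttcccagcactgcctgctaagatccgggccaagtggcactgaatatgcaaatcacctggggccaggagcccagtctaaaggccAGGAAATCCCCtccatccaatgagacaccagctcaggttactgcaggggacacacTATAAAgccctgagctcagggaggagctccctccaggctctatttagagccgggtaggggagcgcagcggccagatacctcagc
LCN2, chr9:128149203-128149502, plus strand: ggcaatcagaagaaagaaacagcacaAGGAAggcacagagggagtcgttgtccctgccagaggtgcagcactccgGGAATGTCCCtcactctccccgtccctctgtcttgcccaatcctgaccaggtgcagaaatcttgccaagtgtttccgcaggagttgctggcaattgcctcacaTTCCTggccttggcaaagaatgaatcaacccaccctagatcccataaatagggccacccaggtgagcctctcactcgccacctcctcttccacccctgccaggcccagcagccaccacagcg
FXYD3, chr19:35117750-35118049, plus strand: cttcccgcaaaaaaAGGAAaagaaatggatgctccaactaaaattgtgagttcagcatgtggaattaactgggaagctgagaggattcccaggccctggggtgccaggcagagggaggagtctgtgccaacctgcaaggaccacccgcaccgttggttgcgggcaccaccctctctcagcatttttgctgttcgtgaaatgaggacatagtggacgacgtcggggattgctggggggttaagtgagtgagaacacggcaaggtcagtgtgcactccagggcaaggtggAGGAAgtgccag
ALDH1A3, chr15:100879581-100879880, plus strand: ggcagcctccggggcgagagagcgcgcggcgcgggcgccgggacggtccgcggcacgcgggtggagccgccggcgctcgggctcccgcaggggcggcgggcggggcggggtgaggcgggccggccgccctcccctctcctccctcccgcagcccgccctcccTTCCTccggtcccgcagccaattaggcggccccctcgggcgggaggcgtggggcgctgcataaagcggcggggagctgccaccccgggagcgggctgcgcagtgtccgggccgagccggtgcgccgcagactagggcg
In the ELF3 window AGGAA began at position -89 and overlapped an NF-kB consensus match that began at -88, and TATAAA began at -34. The LCN2 window held AGGAA matches at -224 and -72 and an NF-kB consensus match at -175. FXYD3 had AGGAA at -236 and 39, and ALDH1A3 at -88, with no match to the other motifs. Over all 35116 windows, 63.1% held AGGAA, 11.5% TATAAA, 11.3% the NF-kB consensus and 6.63% the p53 half-site. The matches describe letters and not binding.

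Of the surface genes, CEACAM1 (ENSG00000079385, chr19:42507304-42561234), a cell adhesion receptor of the carcinoembryonic antigen family, was nearly silent in cells that had not been irradiated. It stood at 0.983 CPM (counts per 1000000 summed UMIs) in NC from 6 UMIs, 1.27 in R, 2.21 in weak IR, 11.3 in strong IR and 5.93 in Mix1. Strong IR was 11.5 times NC (5.23 to 31.6), a ratio that rests on the 6 UMIs of NC, and only strong IR passed 10 CPM. CEACAM1 has near-identical relatives, so some of its reads may have been lost or shared in counting. TSPAN1 (ENSG00000117472, chr1:46175073-46185962), a tetraspanin of secretory and ductal epithelia, stood at 7.70 CPM in NC, 11.2 in R, 8.04 in weak IR, 26.7 in strong IR and 21.4 in Mix1. Weak IR was level with NC, at 1.04 times (0.770 to 1.45), and lay below R, at 0.718 times (0.538 to 0.976), while strong IR was 3.47 times NC (2.58 to 4.77).

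GPRC5A (ENSG00000013588, chr12:12891559-12917937), an orphan receptor induced by retinoic acid, stood at 82.1 CPM in NC, 106.3 in R, 125 in weak IR, 223 in strong IR and 150 in Mix1. Strong IR was 2.72 times NC (2.48 to 2.99), and the weak IR level lay above R. SERINC2 (ENSG00000168528, chr1:31409565-31434680), a multipass membrane protein, stood at 38.2 CPM in NC, 46.7 in R, 37.9 in weak IR, 83.5 in strong IR and 63.8 in Mix1. Its weak IR level was 0.992 times NC (0.865 to 1.14), a difference within counting error. FXYD3 (ENSG00000089356, chr19:35115823-35124324), a small regulator of the sodium pump, stood at 11.1 CPM in NC, 19.7 in R, 19.1 in weak IR, 68.8 in strong IR and 59.1 in Mix1. Weak IR was 0.973 times R (0.786 to 1.22), a difference within counting error, while strong IR was 6.18 times NC (4.85 to 7.99) and Mix1 5.31 times NC (4.18 to 6.84).

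ELF3 (ENSG00000163435, chr1:202007945-202017183) stood at 32.8 CPM in NC, 59.8 in R, 56.3 in weak IR, 85.3 in strong IR and 61.3 in Mix1. Every population outside NC was above it, by 1.72 times (1.49 to 1.99) in weak IR up to 2.60 times (2.25 to 3.02) in strong IR. R overlapped both weak IR and Mix1 within counting error, whereas the intervals of weak IR and Mix1 lay apart. Strong IR was 1.43 times R (1.26 to 1.62). ELF3-AS1 lies antisense to ELF3 and had 185 UMIs in strong IR against 2315 for ELF3, and whether counting used strand is not given in the sources used here.

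LCN2 (ENSG00000148346, chr9:128149071-128153453) stood at 9.50 CPM in NC, 39.1 in R, 21.2 in weak IR, 88.5 in strong IR and 38.1 in Mix1. The repopulated cells were 4.11 times NC (3.05 to 5.63), level with Mix1, and weak IR was only 0.541 times R (0.462 to 0.636). LCN2 was the only member at least 1.5 times lower in weak IR than in R, where 0.482% of genes were that much lower. In strong IR LCN2 was 9.32 times NC (7.18 to 12.3). One strong IR cell held 124 LCN2 UMIs, and in cells thinned to 5000 UMIs the variance of LCN2 was 5.17 times its mean, against 1.16 for GSN, so counting error understates its spread between cells. LCN2 was also the member for which droplets without cells mattered most. It stood at 103 CPM (91.9 to 116) in 1467872 barcodes with at most 100 UMIs, above each of the populations. Subtracting those droplets at the 2.58% of UMIs they hold took 28.1% off the NC level and 3.01% off the strong IR level, and the log2 ratio of strong IR to NC then went from 3.22 to 3.65.

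GSN (ENSG00000148180, chr9:121207794-121332843), the actin-severing protein gelsolin, stood at 21.0 CPM in NC, 28.3 in R, 27.7 in weak IR, 61.6 in strong IR and 36.1 in Mix1. ALDH1A3 (ENSG00000184254, chr15:100877714-100916626), which makes retinoic acid from retinal, stood at 243 CPM in NC, 285 in R, 332 in weak IR, 647 in strong IR and 558 in Mix1. SELENOM (ENSG00000198832, chr22:31104772-31120069) stood at 82.7 CPM in NC, 129 in R, 112 in weak IR, 256 in strong IR and 238 in Mix1. Strong IR was 2.94 times NC (2.45 to 3.54) for GSN, 2.66 times (2.52 to 2.81) for ALDH1A3 and 3.09 times (2.82 to 3.39) for SELENOM. For SELENOM the R level lay above the weak IR level, with weak IR at 0.865 times R (0.795 to 0.942). CDKN1A, for comparison, stood at 180 CPM in NC, 255 in R, 265 in weak IR, 918 in strong IR and 630 in Mix1.

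**Figure D1:**
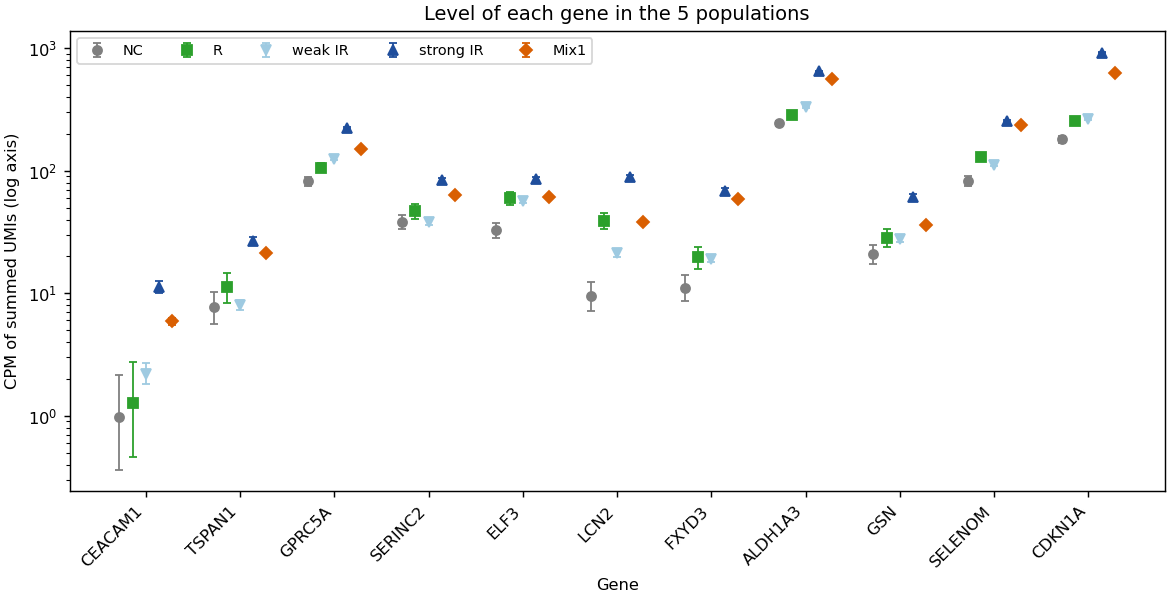
Level of the 10 members and of CDKN1A in NC, R, weak IR, strong IR and Mix1 (y axis, CPM of summed UMIs on a log axis; x axis, gene). Points are populations of 1 sample and bars are 95% Poisson intervals; each gene is highest in strong IR, and LCN2 in R (39.1 CPM) lies above weak IR (21.2 CPM).

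A member was counted as higher at a ratio of 1.5 with at least 10 CPM in either population. Against NC, strong IR was that much higher for 10 of 10 measured members, where 9.92% of all 7722 genes were, and of that pair CEACAM1, TSPAN1 and LCN2 reached 10 CPM in strong IR alone. Mix1 was higher for 9 of 9 measured members beside 6.97% of genes, weak IR for 4 of 8 (GPRC5A, ELF3, LCN2 and FXYD3) beside 0.709%, and R for 4 of 9 (ELF3, LCN2, FXYD3 and SELENOM) beside 1.45%. Only the higher population reached 10 CPM for TSPAN1 and LCN2 in Mix1 against NC, and for LCN2 in weak IR and in R against NC. Such members had to be higher, so counts that hold them support nothing. These comparisons share the NC cells, and the strong IR contrast is the one that chose the members. Strong IR was at least 1.5 times weak IR for 10 of 10, beside 7.23% of genes, CEACAM1 and TSPAN1 reaching 10 CPM in strong IR alone. The median log2 ratio to NC was 1.59 in strong IR, 1.34 in Mix1, 0.53 in weak IR and 0.49 in R, where all genes had medians of -0.11, -0.08, -0.03 and -0.04. Closest to the limit inside were GPRC5A in weak IR (1.53 times NC) and SELENOM in R (1.56 times NC), and just outside were TSPAN1 in R (1.45) and ALDH1A3 in weak IR (1.36).

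Within the irradiated cells of Mix2 the levels differed with tag strength, though not in 1 direction throughout. From the bin of 500 tag8 counts to that of 1000, FXYD3 went from 20.1 to 15.6 CPM, ALDH1A3 from 353 to 311 and CDKN1A from 255 to 232. From the bin of 2000 tag8 counts to that of 6000, CEACAM1 went from 3.44 to 15.5 CPM, LCN2 from 26.5 to 87.2, FXYD3 from 24.9 to 77.2 and CDKN1A from 336 to 1016. ELF3 was at 63.8 CPM, then 96.0, and at 66.3 in the strongest bin (12000 and more), while LCN2 reached 134 CPM there. Between these last bins CEACAM1 went from 15.5 to 10.7 CPM and ALDH1A3 from 731 to 658. Depth moved with the tag, the median UMIs per cell being 9184, 13371 and 10713 in these bins, and its part in the levels was not tested. Within strong IR, ordered by depth into groups of 554 cells, FXYD3 was higher in the shallowest group (96.6 CPM) than in the deepest (55.9 CPM), whereas ALDH1A3 was at 661 and 614 CPM.

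**Figure D2:**
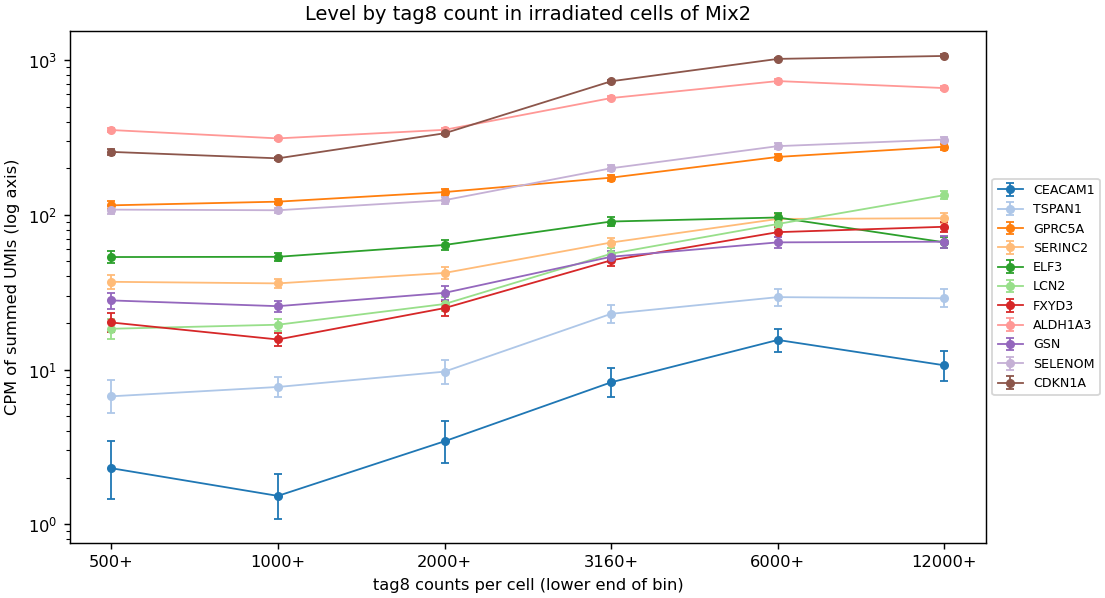
Levels in irradiated cells of Mix2 by tag8 count (x axis, lower end of the bin; y axis, CPM of summed UMIs on a log axis; lines are genes, bars 95% Poisson intervals). ELF3 drops from 96.0 to 66.3 CPM in the last bin, where LCN2 reaches 134 CPM.

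The share of cells with at least 1 UMI was high for some members and low for others. In strong IR 96.0% (95.1 to 96.8) of cells had an ALDH1A3 UMI and 86.7% (85.2 to 88.1) a SELENOM UMI, while 39.5% (37.5 to 41.6) had LCN2 and 11.4% (10.1 to 12.8) CEACAM1. NC stood at 76.4% (73.3 to 79.3) for ALDH1A3, 5.80% (4.29 to 7.64) for LCN2 and 0.741% (0.272 to 1.61) for CEACAM1. Because strong IR cells were deeper, shares were also taken in cells thinned to 5000 UMIs, which kept 699 NC, 537 R, 5223 weak IR, 2066 strong IR and 10667 Mix1 cells and left out 111, 96, 1099, 150 and 4963. At that depth ELF3 was found in 15.7% (13.1 to 18.7) of NC, 21.2% (17.8 to 24.9) of R and 30.5% (28.5 to 32.5) of strong IR cells. LCN2 was found in 5.29% (3.75 to 7.22) of NC, 16.2% (13.2 to 19.6) of R and 24.6% (22.7 to 26.5) of strong IR cells. In strong IR 68.8% of the LCN2 UMIs were in the tenth of thinned cells with the most, against 29.0% for ALDH1A3. No cell type that should lack these genes is in the libraries, so free RNA in droplets could not be read off another type.

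**Figure D3:**
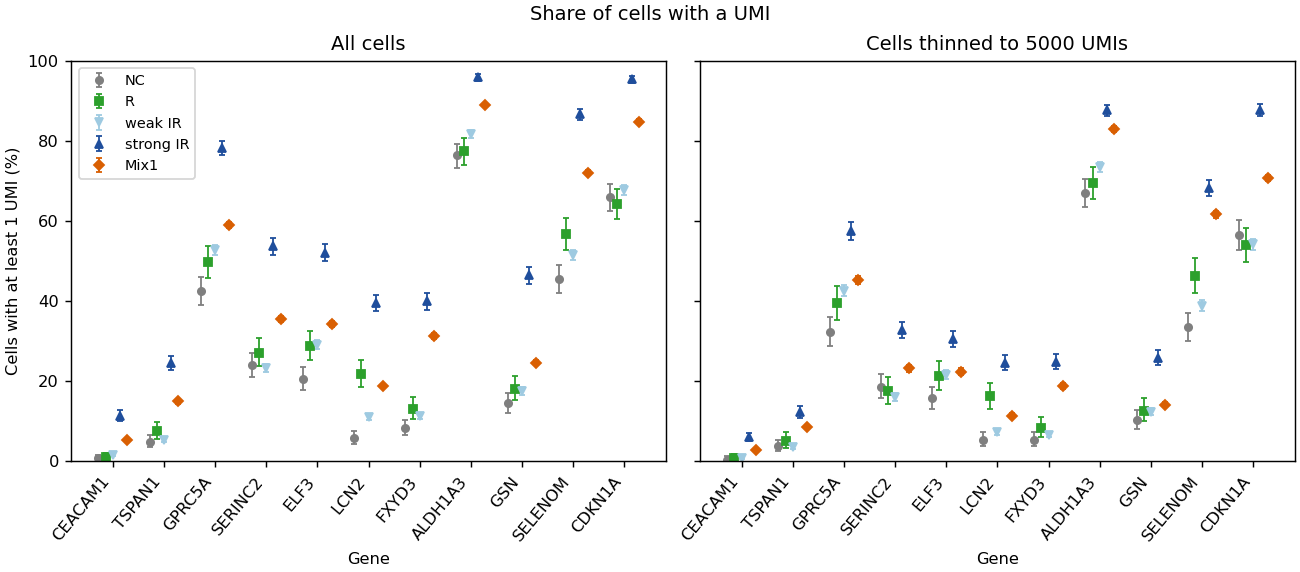
Share of cells with at least 1 UMI in all cells (left) and in cells thinned to 5000 UMIs (right) (y axis, percent of cells; x axis, gene; bars are Clopper-Pearson 95% intervals). Strong IR remains above NC for LCN2 after thinning, at 24.6% against 5.29%.

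The cell-to-cell question was put to cells thinned to 5000 UMIs. In each population the level of a member was compared between cells with and without an ELF3 UMI, and between cells with and without a CDKN1A UMI after CDKN1A had been thinned to the ELF3 total, so that both genes divided the cells into groups of similar size. ELF3 and CDKN1A were themselves higher in strong IR than in NC, at 2.60 and 5.09 times, and that contrast chose the members. These splits are therefore not independent of the choice, and its part in the ratios was not tested. In Mix1 all 9 other members were higher with either gene, and 7 of 9 had the larger ratio under CDKN1A. Over 7304 measured genes there the median ratio was 0.952 with CDKN1A and 0.990 with ELF3. How many of all genes were higher at all with either gene, or had the larger ratio under CDKN1A, was not counted in any population. Such counts of members stand without that share. SELENOM was 1.45 times higher with CDKN1A (1.39 to 1.5) and 1.24 times with ELF3 (1.19 to 1.29). FXYD3 stood at 1.81 (1.67 to 1.96) and 1.42 (1.30 to 1.54), SERINC2 at 1.69 (1.57 to 1.83) and 1.18 (1.09 to 1.28), and ALDH1A3 at 1.54 (1.5 to 1.58) and 1.26 (1.23 to 1.30). For these 4 members the intervals lay apart. The exceptions were TSPAN1, with 1.91 under ELF3 (1.67 to 2.18) and 1.80 under CDKN1A (1.58 to 2.06), and LCN2, with 1.57 (1.42 to 1.73) and 1.46 (1.31 to 1.61), and for both the intervals overlapped. Both turned round at 8000 UMIs, where TSPAN1 stood at 2.09 under CDKN1A and 1.81 under ELF3 and LCN2 at 1.62 and 1.61. With CDKN1A not thinned, TSPAN1 stood at 2.83 and LCN2 at 2.42 under CDKN1A. Unthinned CDKN1A was found in 71.0% of these cells and ELF3 in 22.9%, so the values of 2.83 and 2.42 cannot be compared with the ELF3 ratios. The intervals do not cover the random draw of the thinning. With another draw the Mix1 ratios under CDKN1A and ELF3 were 1.84 and 1.40 for FXYD3, 1.54 and 1.25 for ALDH1A3 and 1.44 and 1.23 for SELENOM, while those of SERINC2 came nearer to each other, at 1.43 and 1.27.

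In weak IR 7 of 9 members again had the larger ratio under CDKN1A, with TSPAN1 and LCN2 the exceptions. Both exceptions turned round at other depths. At 3000 UMIs LCN2 stood at 2.11 under CDKN1A and 1.63 under ELF3, and TSPAN1 at 2.22 and 1.55. At 8000 UMIs LCN2 stood at 2.05 and 1.46, and TSPAN1 at 2.54 and 1.62. With another draw LCN2 stayed larger under ELF3, at 1.56 against 1.38. The intervals lay apart for ALDH1A3 and SELENOM. ALDH1A3 was 1.34 times higher with CDKN1A (1.28 to 1.41) and 1.10 times with ELF3 (1.05 to 1.16). TSPAN1 stood at 1.54 with ELF3 (1.10 to 2.12) in weak IR, and at 0.969 with another draw. In strong IR the count was also 7 of 9, but the intervals of all 7 overlapped. LCN2 there was 1.81 times higher with ELF3 (1.59 to 2.05) and 1.29 times with CDKN1A (1.13 to 1.48), the intervals lying apart. The CDKN1A value is that of a gene thinned from 9456 to 812 UMIs, and without that thinning LCN2 was 2.16 times higher with CDKN1A. Unthinned CDKN1A was found in 88.0% of these cells and ELF3 in 31.2%, so 2.16 cannot be compared with the ELF3 ratio. The gap between the ELF3 and CDKN1A ratios rested on the draw. With another random thinning LCN2 was 1.34 times higher with ELF3 (1.17 to 1.52) and 1.21 times with CDKN1A (1.06 to 1.39). The strong IR cell richest in LCN2 carried ELF3 in both draws, and without it the first draw gave 1.61 with ELF3 (1.41 to 1.84) and 1.40 with CDKN1A (1.22 to 1.60), and the second 1.16 with ELF3 (1.01 to 1.34) and 1.31 with CDKN1A (1.14 to 1.5).

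**Figure D4:**
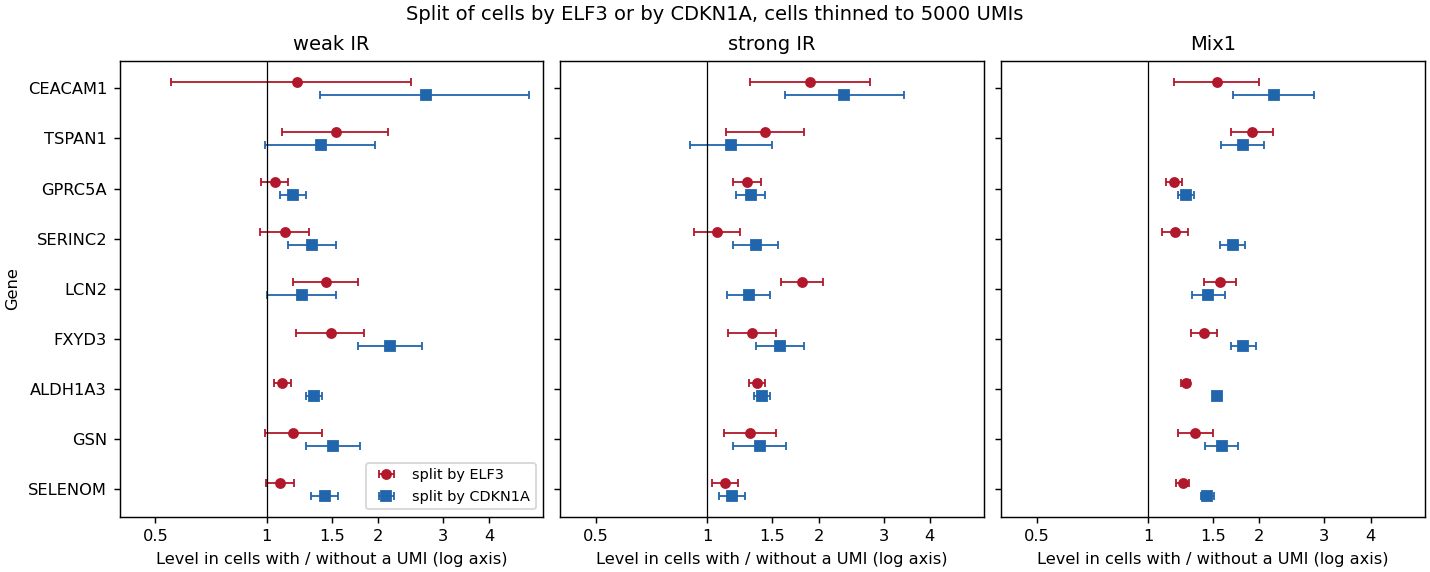
Ratio of each member's level in cells with against without a UMI of ELF3 (circles) or of CDKN1A thinned to the ELF3 total (squares) in weak IR, strong IR and Mix1 (x axis, ratio on a log axis; y axis, gene; bars are exact 95% counting intervals). In Mix1 the intervals lie apart for SERINC2, FXYD3, ALDH1A3 and SELENOM, with the larger ratio under CDKN1A, and in strong IR for LCN2, with the larger ratio under ELF3.

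Here a member counted at a ratio of 1.5 with at least 10 CPM over all thinned cells of the population. By that rule 2 members were higher with ELF3 in Mix1 (TSPAN1 and LCN2) beside 0.342% of genes, and 5 with CDKN1A beside 2.08%. In strong IR 2 were higher with ELF3 (CEACAM1 and LCN2) beside 2.63% of genes, and 2 with CDKN1A (CEACAM1 and FXYD3) beside 1.92%. With another draw CEACAM1 and LCN2 stood at 1.38 and 1.34 with ELF3, and TSPAN1, which had not counted, at 1.65. With CDKN1A that draw gave 1.53 for CEACAM1 and 1.46 for FXYD3. In weak IR none of the 7 measured was higher with ELF3 beside 0.111%, and 2 were with CDKN1A (FXYD3 and GSN) beside 0.817%. In the first draw of these splits, which is not the one behind the shares above, NC and R held only 104 and 118 cells with ELF3. In NC none of the 6 measured was higher with ELF3 beside 5.23% of genes or with CDKN1A beside 5.11%, and 1 (FXYD3, 0.309, 0.0361 to 1.20) was lower with ELF3 beside 10.7%. In R 1 (GSN) was higher with ELF3 beside 6.42%, and 2 (TSPAN1 and FXYD3) with CDKN1A beside 6.15%. LCN2 in NC lay below 10 CPM over all cells and is outside that count, with 16.0 CPM in cells with CDKN1A and 7.67 without, 2.09 times (0.882 to 4.59). That ratio rested on 10 and 22 UMIs, and was 1.45 at 8000 UMIs and 3.93 with another draw. In NC cells without ELF3, LCN2 was 5.03 times higher above the CDKN1A median than at or below it (2.23 to 11.5). There CDKN1A was not thinned to the ELF3 total, and the 111 and 484 cells stood at 27.0 and 5.37 CPM, so this ratio too rests on few UMIs. In R the first draw put the interval above 1 with CDKN1A for TSPAN1, ALDH1A3 and SELENOM, and for none of the 9 with ELF3. TSPAN1 stood at 3.12 (1.43 to 6.74) from 14 and 17 UMIs. It was 3.22 at 3000 UMIs, but 1.22 with another draw and 0.875 at 8000 UMIs. SELENOM stood at 1.39 (1.08 to 1.77), but at 1.21 with another draw, 0.941 at 3000 UMIs and 1.04 with CDKN1A not thinned. ALDH1A3 stood at 1.26 (1.06 to 1.5), 1.42 with another draw, 1.34 at 3000 UMIs and 1.04 at 8000 UMIs. Among R cells without ELF3, SELENOM above the CDKN1A median was 0.951 times the rest (0.679 to 1.31) and ALDH1A3 1.54 (1.27 to 1.87). In NC and R no member had its ELF3 and CDKN1A intervals apart, so a difference between the 2 genes was not detectable at this depth.

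The cells with CDKN1A also differed in their cycle. In Mix1 35.1% of cells with CDKN1A and 63.5% of those without held a UMI of MKI67 or TOP2A, genes of dividing cells, against 45.2% and 60.8% for ELF3. In strong IR the shares were 36.5% and 53.8% for CDKN1A and 44.2% and 50.6% for ELF3. Among the 4565 Mix1 cells with no UMI of either gene, the median ratio over the members was 1.32 for CDKN1A and 1.21 for ELF3, against 1.58 and 1.34 in all thinned cells. There SERINC2 remained at 1.36 with CDKN1A (1.23 to 1.5) and 1.04 with ELF3 (0.934 to 1.15), FXYD3 at 1.49 (1.36 to 1.64) and 1.21 (1.10 to 1.33), and ALDH1A3 at 1.32 (1.28 to 1.36) and 1.16 (1.12 to 1.20), while for SELENOM the intervals overlapped, at 1.19 (1.13 to 1.25) and 1.14 (1.08 to 1.20). Among the 1062 such strong IR cells the median ratio was 1.10 for CDKN1A and 1.29 for ELF3, against 1.35 and 1.32, and only 3 of 9 members had the larger ratio under CDKN1A. Median mitochondrial shares were 5.31% and 5.94% with and without CDKN1A in strong IR and 6.14% and 5.55% for ELF3. In strong IR cells under 5% mitochondrial UMIs 3 of 9 members had the larger ratio under CDKN1A, and in such Mix1 cells 9 of 9. The part of the cycle and of mitochondrial share in these ratios was not tested.

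Cells were also divided by each gene within groups set by the other. Here CDKN1A was not thinned to the ELF3 total (28984 against 3168 UMIs in Mix1) and was split at its median, while ELF3 was split by presence. The sizes of the CDKN1A and ELF3 ratios below therefore cannot be compared with each other. Among Mix1 cells without ELF3, those above the CDKN1A median had 2.80 times the FXYD3 level of the rest (2.54 to 3.09) and 1.82 times the ALDH1A3 level (1.77 to 1.88). Among those above the CDKN1A median, cells with ELF3 had 1.29 times the FXYD3 level (1.18 to 1.42) and 1.18 times the ALDH1A3 level (1.14 to 1.22). Among those at or below it, FXYD3 with ELF3 was at 1.08 times (0.895 to 1.30). LCN2 was 2.40 times higher above the CDKN1A median among cells without ELF3 (2.14 to 2.71), and cells with ELF3 had 1.27 times the LCN2 level of those without among cells above that median (1.12 to 1.43) and 1.84 times among cells at or below it (1.54 to 2.21). Within these groups cells with ELF3 still held more CDKN1A, 1.12 times above the median (1.09 to 1.15) and 1.20 times at or below it (1.09 to 1.32).

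Correlations of log2(UMIs + 1) across thinned cells, which share a library and a depth, were weak for most members. CDKN1A and ALDH1A3 had the highest, r = 0.38 over 2066 strong IR cells and 0.36 over 10667 Mix1 cells, followed by CDKN1A with SELENOM (0.22 and 0.28) and with FXYD3 (0.20 and 0.24). With ELF3 the highest was ALDH1A3, at 0.20 in strong IR and 0.11 in Mix1, and LCN2 stood at 0.11 and 0.07. ELF3 and CDKN1A themselves had r = 0.11 in strong IR and 0.15 in Mix1. In sparse counts values of this size are descriptions, and CDKN1A has more UMIs than ELF3. Among 4987 genes of at least 20 CPM, the 5 most like ELF3 in strong IR were ALDH1A3 (0.20), NEAT1 (0.18), ISYNA1 (0.17), GDF15 (0.16) and MALAT1 (0.16). The 5 most like CDKN1A were GDF15 (0.44), FTH1 (0.43), SFN (0.43), CST3 (0.42) and S100A6 (0.39), and ALDH1A3 was at rank 6.

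**Figure D5:**
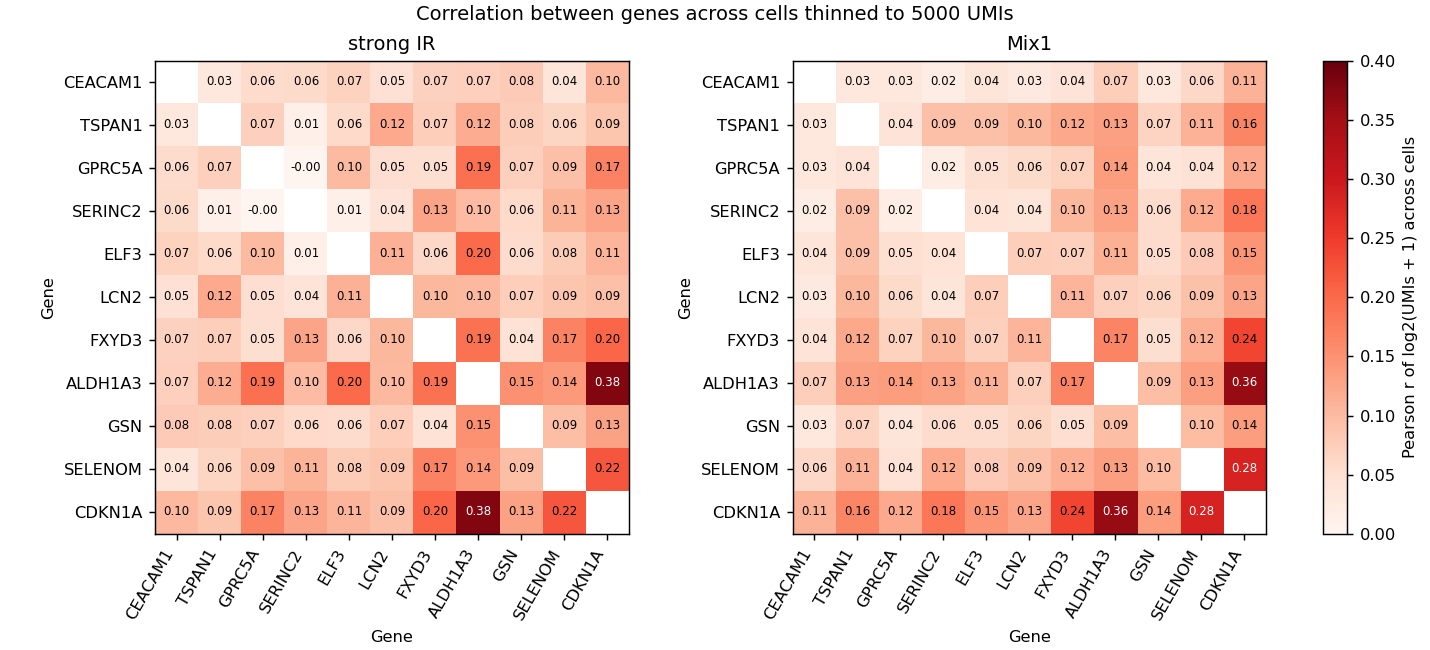
Pearson r between the 10 members and CDKN1A across cells thinned to 5000 UMIs in strong IR (left) and Mix1 (right), with genes on both axes and r of log2(UMIs + 1) as colour and number. The row of CDKN1A holds the highest values, 0.38 and 0.36 for ALDH1A3.

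The relatives of the members were read by the level ratio of strong IR to NC, in lists made with earlier results of these data known and beside the 9.92% of all genes at least 1.5 times higher. Of 15 measured tetraspanins 3 were at least 1.5 times higher, led by TSPAN1, with TSPAN33 (1.58) and TSPAN6 (1.52) next and TSPAN4 lowest (0.696). TSPAN1 reached 10 CPM in strong IR alone and had to be higher. Of 14 measured selenoproteins SELENOM alone was higher, a share near that of all genes, with SELENOW (1.39) and the lipid peroxidase GPX4 (1.30) next and SELENOF lowest (0.737). Of 4 gelsolin-family and 4 SERINC genes measured, 1 each was higher, with SVIL (1.40) and CAPG (1.32) after GSN, and SERINC1 (1.48) and SERINC5 (1.41) after SERINC2. All 3 measured FXYD genes were higher, FXYD1 at 1.75 and FXYD5 at 1.63, and so were both measured GPRC5 genes, GPRC5C at 1.95. Of the CEACAM family of 12, only CEACAM1 reached 10 CPM. Each list here and in the next paragraph holds a member chosen by this contrast, so its count includes a gene picked as higher.

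Among epithelial transcription factors ELF3 and KLF5 (1.52, 1.22 to 1.92) were higher of 4 measured, and EHF, another ETS factor, was at 1.06 (0.883 to 1.28). Of 8 measured genes of retinoid metabolism and response, 2 were higher, ALDH1A3 and CRABP2 (2.09, 1.93 to 2.26), a carrier of retinoic acid, with RDH11 lowest at 0.795. Of 6 measured mucosal defence and NF-kB genes 5 were higher in strong IR. LCN2, SAA1 and SLPI reached 10 CPM in strong IR alone and had to be higher, so that count supports nothing. SAA1, an acute phase protein, was at 0.655 CPM in NC and 17.5 in strong IR, and the protease inhibitor SLPI at 1.47 and 33.8, while Mix1 stood at 0.544 for SAA1 and 3.01 for SLPI. PI3, another protease inhibitor, stood at 15.7 CPM in strong IR with 0 UMIs in NC and is outside that count. SAA1 has a near-identical copy, SAA2, so its counts are uncertain. NFKBIA, the inhibitor of NF-kB, had the lowest ratio, 1.20 (1.02 to 1.43).

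EpiHR, the list from which 4 members were taken, had 20 of 31 measured genes higher in strong IR, beside 9.92% of all genes, led by CEACAM1, TSPAN1 and GPRC5A. All 4 members of the list are among the 20 and were chosen by this contrast. CEACAM1 and TSPAN1 also reached 10 CPM in strong IR alone and had to be higher. How many of the other EpiHR genes did so was not counted, so the strong IR count supports nothing. EpiHR had 9 of 29 in Mix1 beside 6.97%, 3 of 28 in weak IR beside 0.709% and 1 of 29 in R beside 1.45%. Its lowest gene was ADAM9, at 0.707 in strong IR. Of 24 measured p53 targets 21 were higher in strong IR, with TP53INP1 (5.98), TP53I3 (5.96) and CDKN1A (5.09) leading and AEN lowest (1.35). In Mix1 18 of 23 were higher, in weak IR 4 of 23 and in R none of 22. All 20 mitotic genes were at least 1.5 times lower in strong IR and in Mix1, with HMMR lowest at 0.312 times NC in strong IR. None of the 20 was that much lower in weak IR or in R. No share of all genes at least 1.5 times lower stands beside these counts. Epithelial markers were present in every population, with KRT18 at 1.84 times NC and EPCAM at 0.708 in strong IR. Markers of erythroid, endothelial, immune and fibroblast lineages all stayed under 10 CPM, the highest standing at 2.99 CPM.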

How the data were processed

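RNA of single cells was counted in 2 droplet libraries, Mix1 and Mix2. The authors deposited raw UMI counts per gene and barcode, made with Cell Ranger (3.1.0 for Mix1 and 3.0.1 for Mix2, per the file headers) on GRCh38, without normalization, and an unfiltered matrix of Mix2 that served for droplets without cells and for no population. Hashtags of Mix2 were deposited in the same matrix as counts. The members and gene lists were chosen with earlier results of these data known.

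Kept were 15630 of 17019 barcodes of Mix1 and 11652 of 13888 of Mix2. Of the latter, 9981 were placed by the tag limits given in the text, 1074 fell below a limit and 597 had no tag at 80%. The study gives fewer cells in both mixes and, unlike here, more repopulated than unirradiated cells, for a reason not given in the sources used here. Doublets were limited by the 80% rule in Mix2 only, and Mix1 carried no tags by which to limit them. UMIs were summed per population (CPM), and ratios, levels and shares carry exact conditional binomial, Poisson and Clopper-Pearson 95% intervals. Named genes were the 10 members, CDKN1A, up to 3 measured genes of highest and 1 of lowest strong IR to NC ratio in each list, and the 5 genes of highest r with ELF3 and with CDKN1A in strong IR. PI3 was named after its values were seen.

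Cell-to-cell values used cells of at least 5000 UMIs thinned without replacement to 5000 (Python 3.11.15, numpy 2.4.6, scipy 1.17.1). Intervals and thinning were checked on simulated Poisson counts. These lack the wider spread between cells seen for members such as LCN2, so the intervals were not checked for that spread. Alternatives changed the tag and mitochondrial limits, scaling (TMM of edgeR 4.0.16 among them), depth, background, fold and splitting. CPM in 3' data was not scaled by length. Gene positions are from GENCODE on GRCh38, and promoters from RefSeq.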

Additional observations from a re-analysis of the deposited data

How the results depend on the processing

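No paired analysis was possible because each population comes from 1 sample. Counts of members at least 1.5 times higher than NC stayed at 10 of 10 in strong IR under every alternative run. That contrast chose the members, and the lowest of its ratios was 2.19, so the steady count supports nothing. In weak IR the 4 became 8 under 5% mitochondrial UMIs, 2 after thinning to 5000 UMIs and 1 at a fold of 2. At a fold of 2 R went from 4 to 1 and Mix1 from 9 to 5.

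Cell-to-cell counts were less steady. With ELF3, NC went from 0 to 3 when 2 UMIs were set against 0, and to 2 both without MKI67 or TOP2A UMIs and under 5% mitochondrial UMIs. R went from 1 to 2 under these 3 settings and to 0 at 8000 UMIs and without the 5% deepest cells. Weak IR went from 0 to 4 under 5% mitochondrial UMIs and to 2 at 3000 UMIs, at 2 UMIs against 0, without cycling UMIs and with another seed. Strong IR went from 2 to 5 at 2 UMIs against 0, to 1 with another seed and without the deepest cells, and to 0 at 8000 UMIs and under 5% mitochondrial UMIs. The 1 with another seed was TSPAN1, which was not among the 2. Mix1 went from 2 to 6 at 2 UMIs against 0 and to 1 without cycling UMIs and under 5% mitochondrial UMIs.

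With CDKN1A, NC went from 0 to 4 without cycling UMIs and to 1 at 3000 UMIs, at 2 UMIs against 0 and with another seed. R went from 2 to 4 at 3000 UMIs, 6 at 2 UMIs against 0, 0 without the deepest cells, and 1 at 8000 UMIs, with CDKN1A not thinned and with another seed. Weak IR went from 2 to 8 under 5% mitochondrial UMIs, to 6 at 2 UMIs against 0 and without cycling UMIs, and to 1 with CDKN1A not thinned and with another seed. Strong IR went from 2 to 9 with CDKN1A not thinned, 4 at 8000 UMIs, 1 at 3000 UMIs, with another seed and without the deepest cells, and 0 without cycling UMIs and under 5% mitochondrial UMIs. Mix1 went from 5 to 0 without cycling UMIs.

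Members with the larger ratio under CDKN1A went in NC from 6 to 2 at 8000 UMIs, in R from 5 to 3 without the deepest cells and 2 under 5% mitochondrial UMIs, and in strong IR from 7 to 4 at 2 UMIs against 0 and 3 both without cycling UMIs and under 5% mitochondrial UMIs. Over all alternatives NC ranged from 2 to 8, R from 2 to 6, strong IR from 3 to 9 (9 with CDKN1A not thinned), Mix1 from 5 to 9 and weak IR from 7 to 9. With CDKN1A not thinned, ELF3 and CDKN1A divided the cells into groups of unlike size, so their ratios cannot be compared under that setting. Of 651 recomputed member ratios 78 fell on the other side of 1, namely 35 in NC, 31 in R, 5 in weak IR, 7 in strong IR and 0 in Mix1. Of these, 3 had been at least 1.5 times with an interval off 1, given here on the log2 scale: TSPAN1 with CDKN1A in R at 8000 UMIs (-0.19), TSPAN1 with ELF3 in weak IR with another seed (-0.046) and CEACAM1 with CDKN1A in strong IR under 5% mitochondrial UMIs (-0.11). No ratio of CEACAM1 in R to NC could be had under 5% mitochondrial UMIs. The causes were not tested. Leaving out the strong IR cell richest in LCN2 was chosen after seeing the data. In NC and R the number of cells limits the counts, and a tag share of 95% left only 88 NC and 44 R cells.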

Other observations

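Droplets outside the populations also held the members. In 1067 barcodes whose tag8 share reached 80% with fewer than 500 tag8 counts, at a median of 963 UMIs, LCN2 stood at 62.7 CPM (52.5 to 74.3), FXYD3 at 46.2 (37.5 to 56.3) and ALDH1A3 at 482 (453 to 513), between weak IR and strong IR. In 597 barcodes with no tag at 80%, at a median of 12258 UMIs, LCN2 stood at 40 CPM (35.6 to 44.9), ELF3 at 58.4 (53 to 64.3) and CDKN1A at 344 (331 to 358). In droplets without cells ELF3 stood at 71.4 CPM (61.9 to 81.9), GSN at 59.1 (50.5 to 68.7), FXYD3 at 35.2 (28.6 to 42.8) and CDKN1A at 402 (379 to 426), each between NC and strong IR, whereas LCN2 there lay above strong IR.

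A single R cell held 59 CDKN1A UMIs, and in thinned R cells the variance of CDKN1A was 5.83 times its mean, against 1.61 in NC. The median ratio over the 9 members in R was 1.24 with CDKN1A and 1.08 with ELF3.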
